A study of Mus musculus with 6 samples.

Results

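The DnaJ genes encode the HSP40 proteins, the co-chaperones of the HSP70 chaperones. Every gene whose only symbol on its probe sets was Dnaja, Dnajb or Dnajc followed by digits was taken, which gave 42 genes of the 18193 with a single symbol on the array. Of these, 4 were in subfamily a, 13 in subfamily b and 25 in subfamily c. After dim probe sets had been left out, 38 of the 42 were tested among 12917 genes: all 4 of subfamily a, 11 of subfamily b and 23 of subfamily c. Genes that carry a J domain under other names, and symbols with a letter after the digits, were not members.

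RNA was measured on 6 Affymetrix mouse arrays, 2 in each of 3 groups. The cells were embryo fibroblasts of ICR mice at embryonic day 15.5, from 2 preparations numbered in the labels and called cultures 1 and 2 here; each gave 1 array to every group. Control cells stayed at 37 °C without an agent, and LPS cells received lipopolysaccharide from E. coli, a bacterial membrane component that triggers inflammatory signalling, at 1 µg/ml for 4 h. HS+LPS cells were first held at 42 °C for 1 h (the heat shock) and then received LPS for 4 h, with no concentration of its own in that group's label. Heat without LPS was not analysed here, so in HS+LPS against Control the heat and the LPS cannot be told apart. No genotype other than the strain was given, and the labels do not say how many embryos made up each preparation.

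A DnaJ protein carries a J domain, which docks on an HSP70 and stimulates its ATPase, so that the HSP70 closes on the unfolded protein that the DnaJ protein has delivered. Subfamilies a and b follow the layout of the bacterial DnaJ protein, with or without its zinc-finger region, while subfamily c proteins share little beyond the J domain and often serve a single task at 1 place in the cell. After heat, heat shock factor 1 binds heat shock elements, which are inverted repeats of the unit GAA, and switches on chaperone genes.

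The 6 arrays had been scaled to one common level: the mean after trimming 2% of probe sets at each end was 100.001 on every array. Signals are intensities on that linear scale, with medians of 11.9 to 14.4 and highest values of 6931 to 8434. The noise level of an array is the highest signal among its 27 control probe sets for bacterial RNA, 6.0 to 7.67 over the arrays. Arrays of the same group correlated at r = 0.965 to 0.968. Precision is limited by the 2 arrays per group, and a bulk array cannot tell fewer cells of a type from less RNA per cell. All 8 fibroblast markers were above noise on every array, with summed signals of 25669 to 32374 in Control, 26792 to 27528 in LPS and 26787 to 29083 in HS+LPS. Markers of macrophages (3 of 6 above noise on all arrays, Fcgr1 and Itgam at or under noise on all) summed to 105 to 176, 111 to 175 and 106 to 156 in the same order. Endothelial markers (3 of 6, with Pecam1 and Tie1 at or under noise) summed to 57.6 to 72.5, 40.4 to 88.6 and 67.5 to 102. Epithelial markers (2 of 6, with Cdh1 at or under noise) summed to 52.2 to 67.1, 53.3 to 103 and 96.2 to 134. Skeletal muscle markers (3 of 6, with Actn2 at or under noise) summed to 297 to 355, 264 to 313 and 374 to 448, and neural and glial markers (4 of 5 measured) to 398 to 513, 296 to 452 and 484 to 671. In HS+LPS against LPS 1 fibroblast marker, Pdgfrb, fell, by 0.81 on the log2 scale (limma adjusted p = 0.0277), and Pdgfra passed as lower too with the culture as a block, a fit that compares arrays within a culture. With that block 2 neural and glial markers, 1 epithelial and 1 skeletal muscle marker passed as higher, while 0 markers of the 5 non-fibroblast lists passed without it. The part of these other cell types in the DnaJ differences was not tested.

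The stretches before the start sites of the DnaJ genes that the results turn on are shown first, because heat shock elements lie in such stretches. They come from RefSeq's mouse assembly GRCm38.p6, which held windows from 250 bases before to 50 after a start for 35 of the 42 genes, 48 windows in all; Dnajc2, Dnajc5, Dnajc11, Dnajc12, Dnajc18, Dnajc22 and Dnajc30 had none. Capitals mark matches to 2 units, GAANNTTC or TTCNNGAA, and to 3 units, GAANNTTCNNGAA or TTCNNGAANNTTC with at most 1 mismatch in the 9 fixed letters; these forms cover both strands, and matches overlap where units are shared. Positions count back from the base before the start, -1. The stretches shown are Dnaja1 at chr4:40722218-40722467 on the plus strand, Dnaja4 at chr9:54699453-54699482 and chr9:54699496-54699525 on the plus strand, Dnajb4 at chr3:152193839-152193868 on the minus strand, Dnajb1 at chr8:83607925-83608174 on the plus strand and Dnajb6 at chr5:29735648-29735897 on the plus strand. The Dnaja4 and Dnajb4 stretches lie at an inner start of their gene, from which their positions count. The Dnajb4 stretch runs 7 bases past it, so it holds the first transcribed bases of that start. The stretches of Dnaja1, Dnajb1 and Dnajb6 lie upstream of the outermost start.
Dnaja1 promoter: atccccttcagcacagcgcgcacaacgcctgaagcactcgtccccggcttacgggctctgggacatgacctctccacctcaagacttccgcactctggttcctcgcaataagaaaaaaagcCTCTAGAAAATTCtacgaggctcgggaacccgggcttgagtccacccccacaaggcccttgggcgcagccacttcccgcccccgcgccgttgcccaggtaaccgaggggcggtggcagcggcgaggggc
Dnaja4 promoter, outer stretch: ccgccgGAACCTCCGCGAACGTTCtgggcc
Dnaja4 promoter, inner stretch: gcctcctggcgGAACCTTCcgccggcgccg
Dnajb4 promoter, inner start: cgttcgctgTTCTAGAAAGTACagagacac
Dnajb1 promoter: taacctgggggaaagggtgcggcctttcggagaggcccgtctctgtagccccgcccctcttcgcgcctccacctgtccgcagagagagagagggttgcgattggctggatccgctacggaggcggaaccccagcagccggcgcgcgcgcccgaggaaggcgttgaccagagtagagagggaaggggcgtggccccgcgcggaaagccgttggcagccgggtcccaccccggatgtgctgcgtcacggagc
Dnajb6 promoter: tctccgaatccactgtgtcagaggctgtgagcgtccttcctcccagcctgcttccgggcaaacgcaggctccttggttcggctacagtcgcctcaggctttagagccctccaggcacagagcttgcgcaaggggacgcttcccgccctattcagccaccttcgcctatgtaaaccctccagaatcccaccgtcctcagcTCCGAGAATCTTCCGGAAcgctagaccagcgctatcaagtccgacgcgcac

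In the Dnaja1 stretch the 3-unit match began at -129 and the 2-unit match inside it at -124. Dnaja4 had overlapping 3-unit matches from -100 and -95, a 2-unit match at -90 and another at -52. Dnajb4 had a 2-unit and a 3-unit match, both at -14. For Dnaja4 and Dnajb4 the window at the outermost start held no match, and the inner window with matches is shown. Dnajb6 had 2-unit matches at -46 and -41, a 3-unit match with 1 mismatch at -51 and an exact one at -46, and neither window of Dnajb1 held any match. A 2-unit match was present in 7 of the 48 DnaJ windows (14.6%), belonging to Dnaja1, Dnaja4, Dnajb4, Dnajb6, Dnajc10 and Dnajc27, and in 15.1% of all 32851 windows. The 3-unit form with 1 mismatch was present in 7 of the 48 (14.6%, of Dnaja1, Dnaja4, Dnajb4, Dnajb6, Dnajc8 and Dnajc27) and in 7.22% of all windows. The exact form was present in 2 of the 48 (4.17%) and in 0.603% of all. Both are overlapping windows of Dnajb6 that hold the same site. Counted by gene, the 3 forms were present in 6, 6 and 1 of 35 DnaJ genes (17.1%, 17.1% and 2.86%). Among all genes with windows the shares were 17%, 8.15% and 0.662%. These are matches of letters, not sites shown to be bound.

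LPS against Control asks whether LPS for 4 h alone moved the family. No DnaJ gene passed the test: 0 of 38 passed in either direction by limma (Benjamini-Hochberg adjusted p under 0.05 over all genes), beside 0.147% of all genes tested called higher and 0% lower. Before adjustment, 0 were higher and 1 lower at p under 0.05, beside 411 and 218 of all 12917 genes. With the culture as a block the counts were 0 and 0, beside 2.04% and 0.704% of all genes. Differences are given on the scale of log2(intensity + 3.37), which understates the change of dim genes. The family's median was -0.02 (-0.066 to 0.016 with 1 array left out) and its range -1.14 to 0.43, and 37 of 38 genes (97.4%) lay within 0.5 of 0, beside 89.3% of all genes. The single exception was Dnajb3, a testis co-chaperone, with signals of 15.1 and 20.4 in Control and 4.42 and 8.23 in LPS (cultures 1 and 2), the latter around the noise level; its difference of -1.14 had an adjusted p of 0.749 by limma.

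HS+LPS against LPS asks what the preceding heat shock added to cells that all received LPS. Dnaja1, Dnaja4, Dnajb1 and Dnajb4 rose, and no DnaJ gene fell by the fit without a block. That is 4 of 38 higher and 0 lower, beside 0.511% and 0.844% of all genes (66 and 109; 86 and 79 after each array had been centred on its median, which moved the median of all genes from -0.05 to 0.08). Before adjustment, 5 were higher and 4 lower at p under 0.05, beside 640 and 1532 of all 12917 genes. With the culture as a block 5 were higher and 4 lower, beside 6.32% and 12.6% of all genes. The family's median was -0.03, beside -0.05 for all genes, and its sign was not stable: it was 0.094 after centring and 0.034 without the LPS array of culture 1. Of its genes, 27 of 38 (71.1%) lay within 0.5 of 0, beside 77% of all genes. The 4 genes that rose are all placed in the cytosol and nucleus, where 15 members were tested with a median of 0.12. With 1 array left out the count without a block was 2 or 3. Without either LPS array or either HS+LPS array Dnaja4 and Dnajb1 were left, and without either Control array Dnaja1 as well.

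**Figure D1:**
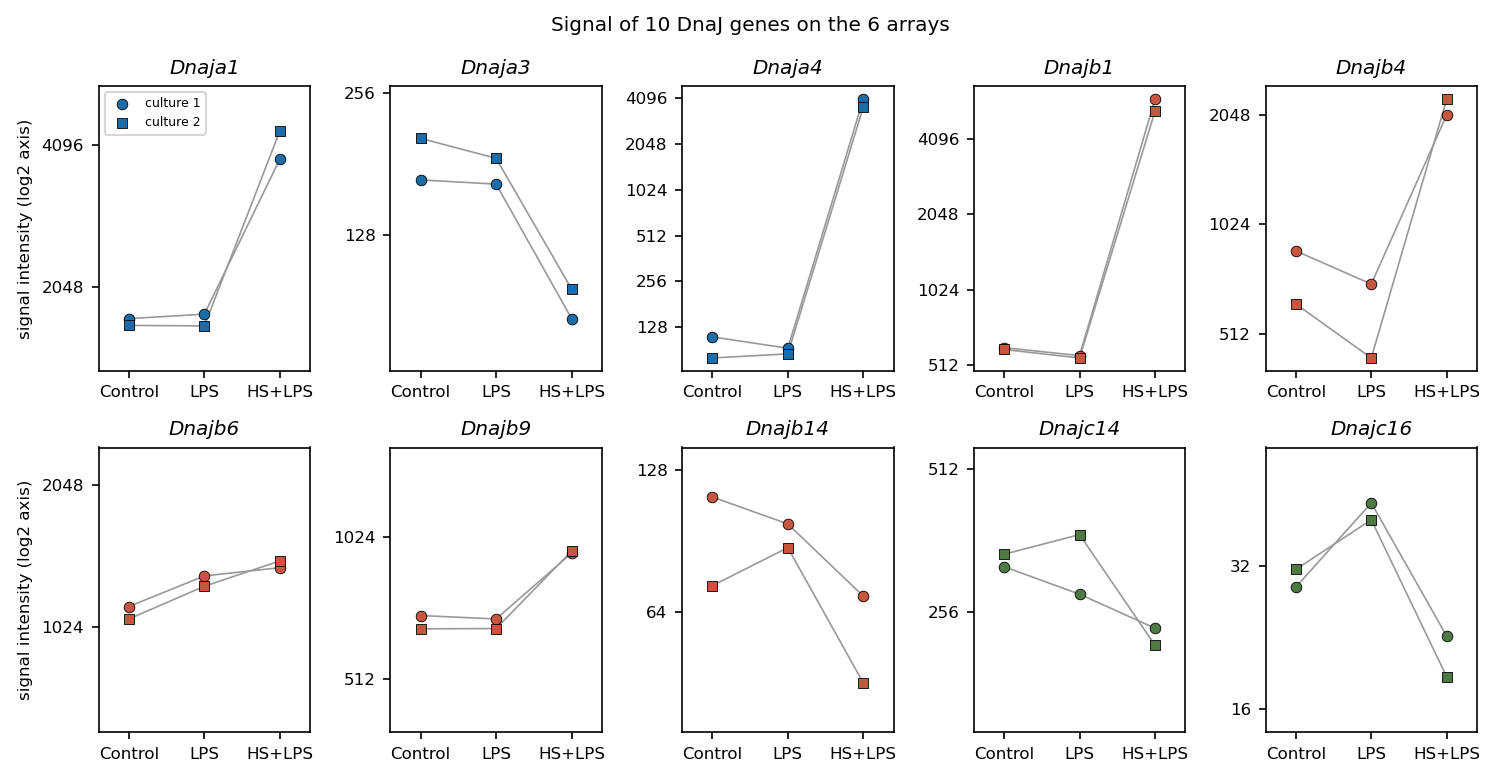
Signal intensity on log2 axes for the 10 DnaJ genes that passed a test in any comparison, without or with the culture as a block; circles are culture 1, squares culture 2, lines join the arrays of a culture, and colours mark subfamilies a (blue), b (red) and c (green). In all 10 genes both HS+LPS arrays lie outside the range of the 4 other arrays. They lie above it for Dnaja1, Dnaja4, Dnajb1, Dnajb4, Dnajb6 and Dnajb9. For Dnaja3, Dnajb14, Dnajc14 and Dnajc16 they lie below it. The genes were chosen by the tests on these values, and the share of all genes with such an order was not counted. Axes differ between panels.

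Dnaja4, a farnesylated cytosolic co-chaperone of subfamily a, had the largest difference of the family. Its signal was 111 and 80.8 in Control, 93.5 and 85.9 in LPS, and 4019 and 3564 in HS+LPS (cultures 1 and 2). Both HS+LPS arrays stood far above the other 4, which overlapped each other. The mean rose from 89.7 ± 5.41 (SD, n = 2) to 3791 ± 321 (SD, n = 2), a 40.7-fold difference and a log2 difference of 5.35 with a standard error of 0.18 (limma adjusted p = 0.000277). It was 5.38 in culture 1 and 5.32 in culture 2, and the 5th highest of all genes tested. The 2 other probe sets of the gene gave 32.0-fold and 45.0-fold.

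Dnajb1, the classical heat-inducible HSP40 and a partner of HSP70 in breaking up protein aggregates, rose 10.1-fold. Its signal was 601 and 591 in Control, 559 and 547 in LPS, and 5916 and 5292 in HS+LPS. The arrays of a group lay close together, and the HS+LPS pair did not overlap the rest. The mean went from 553 ± 8.50 to 5604 ± 441 (SD, n = 2 each), a log2 difference of 3.33 with a standard error of 0.10 (limma adjusted p = 0.000277), with 3.40 in culture 1 and 3.27 in culture 2. Its second probe set gave 10.8-fold. These signals approach the highest on the arrays, 6931 to 8434, and whether signals there still rise in proportion to RNA was not tested. It was the 18th highest of all genes tested. Its promoter windows held no match, and whether matches relate to the rises was not tested.

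Dnajb4, a close relative of Dnajb1 that also works in the cytosol, rose 3.86-fold. Its signal was 865 and 618 in Control, 701 and 439 in LPS, and 2048 and 2265 in HS+LPS. Culture 1 lay above culture 2 in Control and LPS and below it in HS+LPS, and the HS+LPS arrays did not overlap the others. The mean went from 570 ± 185 to 2157 ± 153 (SD, n = 2 each), and the log2 difference was 1.95 with a standard error of 0.26 (limma adjusted p = 0.0343), 1.54 in culture 1 and 2.36 in culture 2. The call rested on every array: without any single one the adjusted p was 0.0509 to 0.203, and it was 0.0908 for the mean of the gene's probe sets. With the culture as a block it was 0.000146. A second probe set gave 4.36-fold, while its dimmest, at 8.11 to 14.6 on the 6 arrays and so just above noise, gave a log2 difference of -0.33, the widest disagreement between probe sets in the family.

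Dnaja1, a farnesylated partner of the constitutive HSP70 of the cytosol, rose 2.34-fold. Its signal was 1756 and 1699 in Control, 1795 and 1695 in LPS, and 3816 and 4376 in HS+LPS. The 4 arrays without heat lay close together and both HS+LPS arrays above them. The mean went from 1745 ± 70.7 to 4096 ± 396 (SD, n = 2 each), a log2 difference of 1.23 with a standard error of 0.11 (limma adjusted p = 0.0146). The call was lost without LPS or HS+LPS of either culture, at adjusted p = 0.0726 to 0.122. Its 2 dimmer probe sets gave larger differences, 4.24-fold and 3.40-fold. RefSeq lists pseudogenes of Dnaja1 and Dnajb6, and whether their probe sets also detect these was not tested.

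The other member of subfamily a in the cytosol, Dnaja2, a housekeeping co-chaperone, did not pass. Its signal was 1918 and 1937 in Control, 1992 and 1969 in LPS, and 1891 and 1786 in HS+LPS. The HS+LPS arrays were the lowest, by a log2 difference of -0.11 with an adjusted p of 0.623 by limma.

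Dnaja3, which serves the HSP70 of the mitochondrial matrix, was lower. Its signal was 168 and 205 in Control, 164 and 186 in LPS, and 85.4 and 98.6 in HS+LPS. Both HS+LPS arrays lay below all others, and culture 2 was above culture 1 in each group. The log2 difference was -0.91 with a standard error of 0.17, -0.92 in culture 1 and -0.89 in culture 2. By limma the adjusted p was 0.0796 without a block and 0.00107 with the culture as a block, so it fell only by the second. Its other probe set above the filter gave -0.70. Subfamily a thus held 2 genes that rose of 4 tested, with a median of 0.56 and a range of -0.91 to 5.35.

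**Figure D2:**
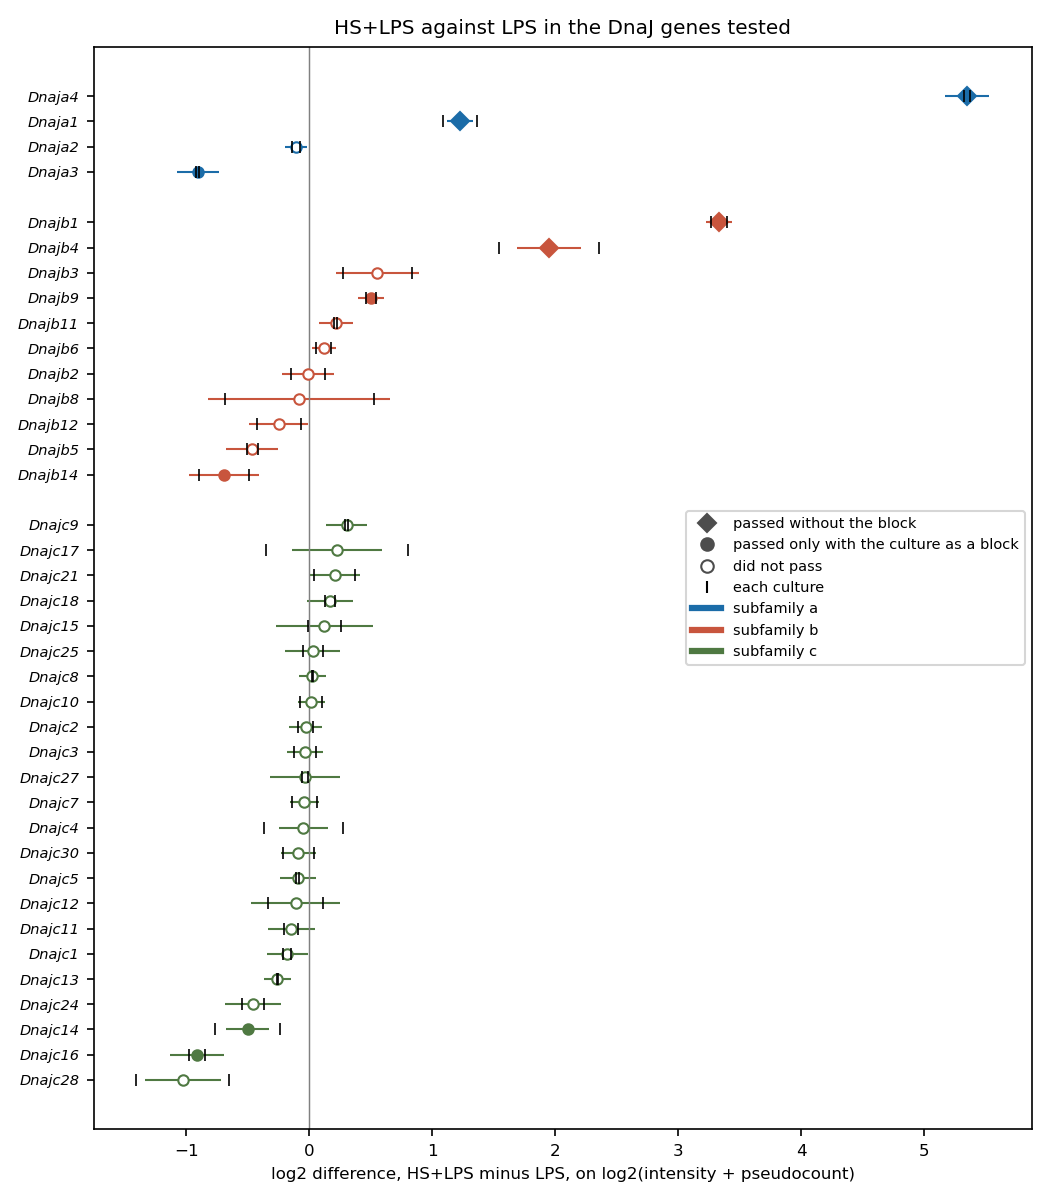
Log2 difference, HS+LPS minus LPS, of the 38 DnaJ genes tested, by subfamily; horizontal bars are ± 1 standard error of the fit without a block and vertical ticks the difference in each culture. Filled diamonds passed without the block, filled circles only with it; 20 of the 23 subfamily c genes lie within 0.5 of 0.

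Subfamily b had 2 genes that rose, Dnajb1 and Dnajb4, of 11 tested, with a median of 0.12 and a range of -0.69 to 3.33. Dnajb6, which keeps polyglutamine proteins from aggregating, read 1132 and 1065 in Control, 1313 and 1249 in LPS, and 1367 and 1413 in HS+LPS. All 3 pairs were separate, with Control lowest, yet HS+LPS minus LPS was 0.12 with an adjusted p of 0.619 by limma. It is the member with the exact 3-unit promoter match. Dnajb9, an endoplasmic reticulum co-chaperone known from the unfolded protein response, read 698 and 655 in Control, 687 and 656 in LPS, and 946 and 956 in HS+LPS. Both HS+LPS arrays lay above the other 4, and the 1.41-fold difference (log2 0.50, standard error 0.10) had an adjusted p of 0.0948 by limma without a block and 0.00304 with it.

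Dnajb14, a membrane protein of the endoplasmic reticulum, was at 112 and 72.9 in Control, 98.4 and 87.7 in LPS, and 69.2 and 45.4 in HS+LPS. The HS+LPS arrays were the lowest, and the log2 difference of -0.69 had an adjusted p of 0.304 without a block and 0.02 with it by limma. Its other probe set gave -0.19, and without the HS+LPS array of culture 2 the value was -0.41. The remaining members of subfamily b passed neither fit. Dnajb12, a relative of Dnajb14, differed by -0.25, Dnajb11, which assists the HSP70 of the endoplasmic reticulum, by 0.22, and Dnajb2, best known in neurons, by -0.01. Dnajb5 differed by -0.46, and the testis genes Dnajb3 and Dnajb8 by 0.55 and -0.08. Dnajb7 and Dnajb13, also testis genes, were under the filter and above noise on 0 and 3 of the 6 arrays.

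Subfamily c had no gene that passed without a block: 0 of 23 in either direction, with a median of -0.04 and a range of -1.03 to 0.30. Before adjustment, 0 were higher and 3 lower at p under 0.05, beside 640 and 1532 of all 12917 genes. With the culture as a block the counts were 0 and 2, beside 6.32% and 12.6% of all genes. Within 0.5 of 0 lay 20 of 23 genes (87%). Dnajc8, a splicing-associated protein with the highest signal of the subfamily, read 1242 and 1207 in Control, 1118 and 1017 in LPS, and 1133 and 1039 in HS+LPS. LPS and HS+LPS overlapped, with a difference of 0.03.

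The 2 members of subfamily c that fell with the culture as a block are both membrane proteins of the endoplasmic reticulum. Dnajc14 read 319 and 339 in Control, 279 and 373 in LPS, and 237 and 218 in HS+LPS, with a log2 difference of -0.50 and a limma adjusted p of 0.227 without and 0.0265 with the block. Its HS+LPS arrays were below all others. Its 2 other probe sets gave -0.59 and -0.50, and without the LPS array of culture 2 the value was -0.29. Dnajc16 read 28.9 and 31.5 in Control, 43.6 and 40.1 in LPS, and 22.8 and 18.7 in HS+LPS, with a difference of -0.91 and adjusted p of 0.118 without and 0.0238 with the block by limma. Its other probe set gave -0.36. LPS was the highest pair here, above Control by 0.43 with an adjusted p of 0.999, and HS+LPS the lowest.

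The other genes of the subfamily passed neither fit, and they fall into places in the cell as follows. In the endoplasmic reticulum, Dnajc1, Dnajc3, Dnajc10, Dnajc18 and Dnajc25 differed by -0.18, -0.03, 0.01, 0.17 and 0.03; Dnajc3 limits the eIF2α kinases and Dnajc10 reduces disulfides. In mitochondria, Dnajc4, Dnajc11, Dnajc15, Dnajc28 and Dnajc30 differed by -0.05, -0.15, 0.12, -1.03 and -0.09. The value of Dnajc28 had an adjusted p of 0.185 by limma (0.0586 with the block) at HS+LPS signals of 9.64 and 6.88, near noise. The other probe set above the filter gave -0.69 for Dnajc11 and -0.88 for Dnajc28. In the cytosol and nucleus, Dnajc2 (ribosome-associated), Dnajc7 (an adaptor between HSP70 and HSP90), Dnajc9 (a histone chaperone), Dnajc17, Dnajc21 and Dnajc24 differed by -0.03, -0.04, 0.30, 0.22, 0.21 and -0.46. On vesicles and endosomes, Dnajc5, the cysteine string protein, and Dnajc13 differed by -0.09 and -0.26. Dnajc12 and Dnajc27 differed by -0.11 and -0.03, and Dnajc6, the neuronal auxilin, and Dnajc22 were under the filter, above noise on 3 and 1 of the 6 arrays.

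By place, the 11 members tested in the endoplasmic reticulum had a median of -0.03, with 0 passing without a block, and 1 higher (Dnajb9) and 3 lower (Dnajb14, Dnajc14 and Dnajc16) with it. The 6 mitochondrial members had a median of -0.12, with 0 passing without a block and 1 lower (Dnaja3) with it. At an unadjusted p under 0.05 without a block these were 1 higher and 2 lower, and 0 higher and 2 lower. With the block 4 of the 15 members of the cytosol and nucleus were higher and 0 lower. Among all genes, 0.511% were higher and 0.844% lower without a block, and 6.32% and 12.6% with it. At an unadjusted p under 0.05 without a block, 640 of all 12917 genes were higher and 1532 lower.

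**Figure D3:**
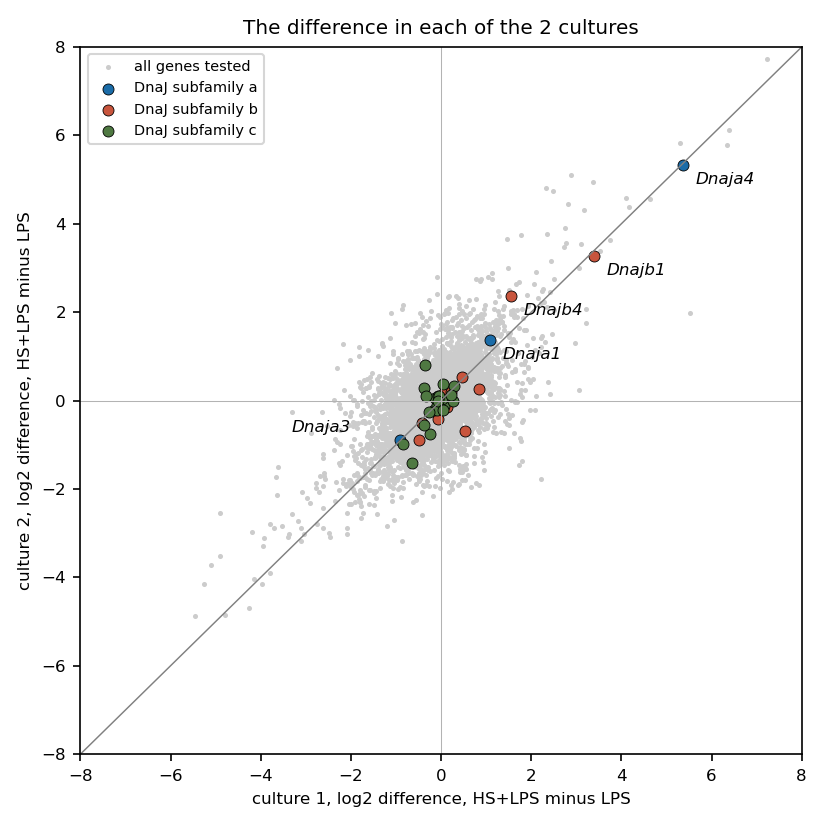
Log2 difference, HS+LPS minus LPS, in culture 1 (x axis) and culture 2 (y axis) for all 12917 genes tested (grey) and the DnaJ genes by subfamily. The diagonal marks equal values, and Dnaja4 and Dnajb1 lie close to it. The sign is the same in both cultures for 26 of the 38 DnaJ genes, beside 9269 of all 12917 genes.

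**Figure D4:**
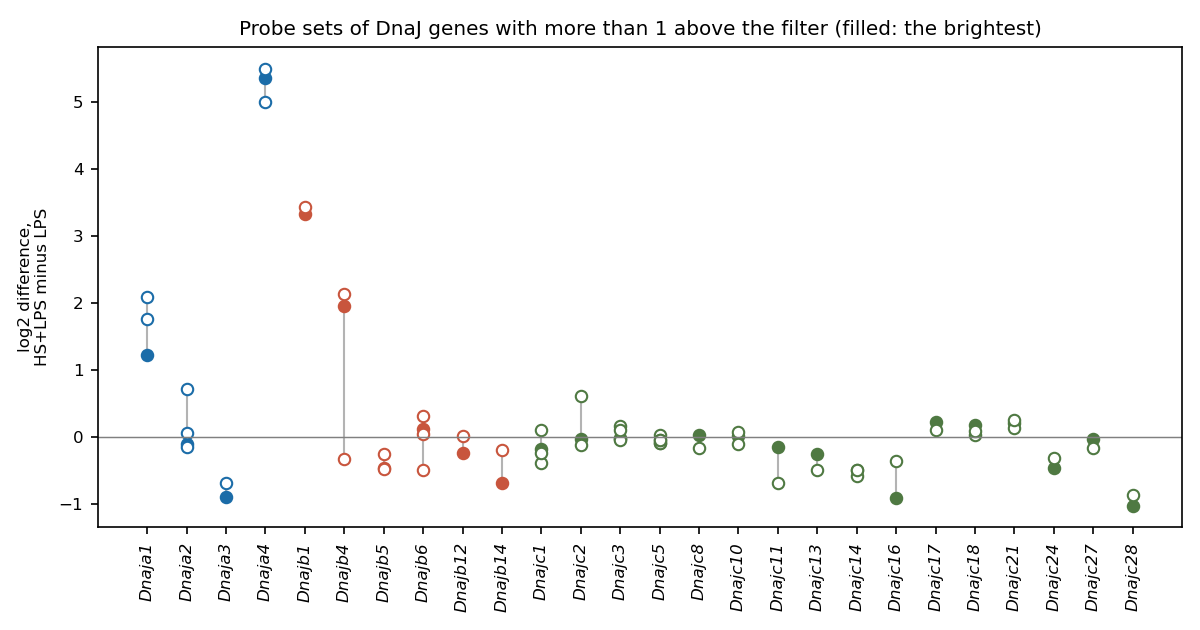
Log2 difference, HS+LPS minus LPS, for each probe set above the filter of the 26 DnaJ genes with at least 2; filled points are the brightest, which was tested, and lines join the probe sets of a gene. Every probe set of Dnaja1, Dnaja4 and Dnajb1 lies above 1, while Dnajb4 has 1 dim probe set at -0.33.

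HS+LPS against Control shares its heated arrays with the comparison above, so the values are given side by side and not as a second line of evidence. Here 3 of 38 DnaJ genes rose and 0 fell, beside 0.17% and 0.00774% of all genes. The blocked fit had 6 higher and 3 lower, beside 5.06% and 12.1%. Before adjustment the fit without a block had 6 and 3 at p under 0.05, beside 578 and 1521 of all 12917 genes. The family's median was -0.06 and its range -1.08 to 5.27, beside a median of -0.09 for all genes; after centring on the median these were 0.064 for the family and 0.03 for all genes. The genes that rose were Dnaja4 (38.6-fold, limma adjusted p = 0.000302), Dnajb1 (9.34-fold, 0.00027) and Dnaja1 (2.36-fold, 0.0201). The call of Dnaja1 was lost without any 1 of the 6 arrays, at adjusted p = 0.0682 to 0.245, leaving 2. Dnajb4 was 2.94-fold above Control with an adjusted p of 0.0815 by limma, and 0.000753 with the block.

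With the block Dnajb6 was 1.27-fold above Control (log2 0.34, limma adjusted p = 0.0161; 0.184 without it), and Dnajb9 differed by 0.49 (0.00396; 0.117 without). The 4 probe sets of Dnajb6 did not move together, at 0.34, 0.18, -0.14 and 0.31. Lower with the block were Dnaja3 by -0.99 (limma adjusted p = 0.00113; 0.087 without), Dnajb14 by -0.66 (0.0264; 0.339 without; the value was -0.36 without the Control array of culture 1 and -0.37 without the HS+LPS array of culture 2) and Dnajc14 by -0.53 (0.0232; 0.219 without). Dnajc16 did not pass, at -0.48 with 0.178 by limma with the block, its Control arrays lying below LPS. By subfamily without the block, 2 of 4 in a, 1 of 11 in b and 0 of 23 in c rose, with medians of 0.59, 0.10 and -0.09.

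The partners of the DnaJ proteins were taken as a list of 29 genes of the HSP70 system, of which 26 were tested. They were HSP70s, exchange factors, adaptors to HSP90, the HSP90 gene Hsp90aa1 and a heat shock factor. In HS+LPS against LPS 4 rose and 0 fell, beside 0.511% and 0.844% of all genes. The median was 0.33, beside -0.05 for all genes. The blocked fit had 14 higher and 2 lower, beside 6.32% and 12.6% of all genes. Before adjustment the fit without a block had 13 and 3 at p under 0.05, beside 640 and 1532 of all 12917 genes. The heat-inducible HSP70 genes Hspa1a and Hspa1b went from 62.4 ± 8.0 to 4984 ± 63.1 and from 221 ± 2.82 to 5437 ± 162 (SD, n = 2 each), 76.1-fold and 24.2-fold. Their limma adjusted p-values were 0.000137 and 0.000277. These near-identical genes may share probe signal, which makes the split between them uncertain. The exchange factors Hsph1 (450 ± 123 to 3807 ± 364, 8.54-fold, limma adjusted p = 0.0119) and Bag3 (442 ± 27.1 to 2276 ± 141, 5.12-fold, limma adjusted p = 0.00418) rose as well. Without either LPS or either HS+LPS array, Hspa1a and Hspa1b were left.

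Hspa8, the constitutive HSP70, went from 4637 ± 418 to 6454 ± 132 (SD, n = 2 each), a log2 difference of 0.48 with an adjusted p of 0.102 by limma without a block and 0.00249 with it; its signals are near the top of the scale. In HS+LPS against Control the partners gave 4 higher and 0 lower, beside 0.17% and 0.00774% of all genes. With the block they gave 11 and 3, beside 5.06% and 12.1%. In LPS against Control they gave 0 and 0, beside 0.147% and 0%, and with the block 0 and 0, beside 2.04% and 0.704%. At an unadjusted p under 0.05 without the block, LPS against Control had 1 and 0, beside 411 and 218 of all 12917 genes. Hsf1 was not analysed here. Of 6 J-domain genes under other names, 4 were tested (Hscb, Sec63, Gak and Dnlz), and in HS+LPS against LPS they differed by 0.28, 0.21, -0.09 and 0.17. None of the 4 passed in any of the 3 comparisons by limma, with or without the block, and without the block none had an unadjusted p under 0.05. A 2-unit match was present in 6 of the partners' 20 windows (30%), beside 15.1% of all windows. Counted by gene, it was present in 5 of the 18 partners with windows (27.8%), beside 17% of all genes with windows. Of the 6 windows, 2 are overlapping windows of Hsph1. Another 2 belong to the near-identical Hspa1a and Hspa1b, with the match at the same position, -104.

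**Figure D5:**
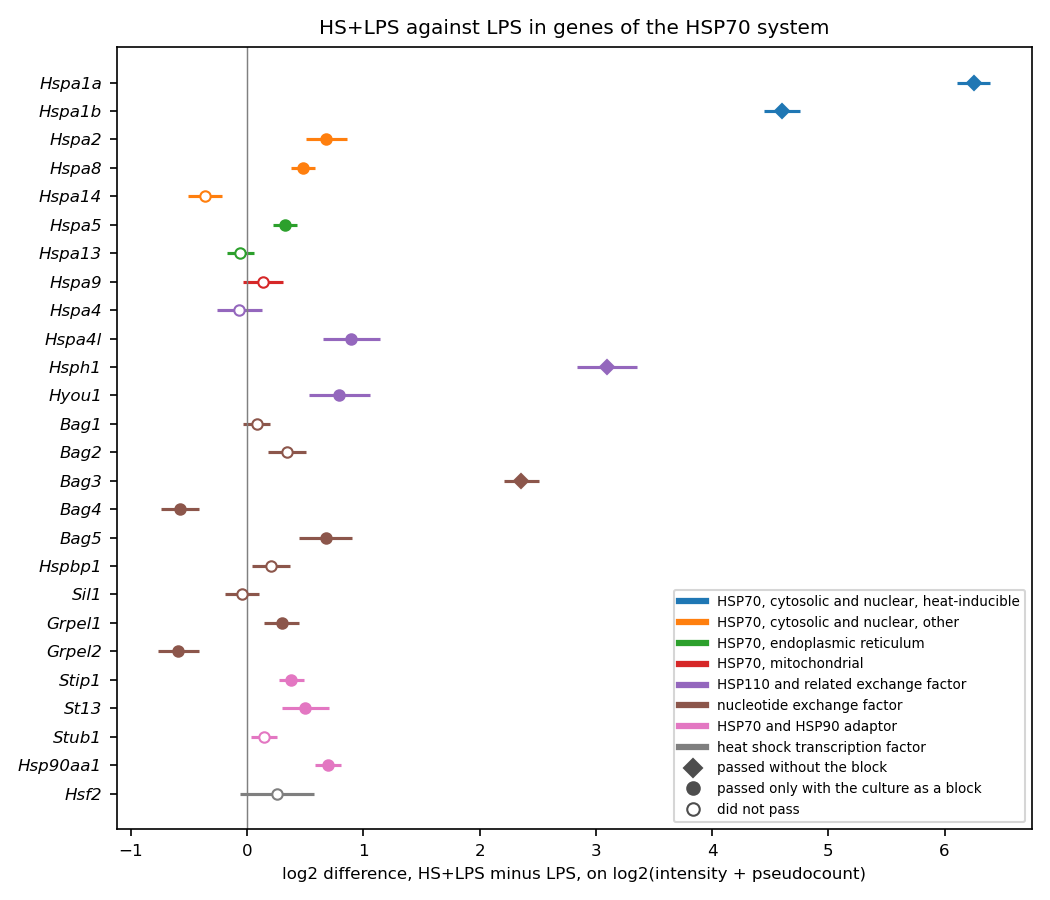
Log2 difference, HS+LPS minus LPS, of the 26 genes of the HSP70 system tested, with bars of ± 1 standard error of the fit without a block. Colours mark the role, and Hsp90aa1, itself an HSP90, is coloured with the adaptors. Hspa1a and Hspa1b have the largest differences, Hsph1 and Bag3 follow, and the other 22 did not pass without the block.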

How the data were processed

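Per the labels, total RNA of each culture was labelled with biotin and hybridised to Affymetrix Mouse Genome 430 2.0 arrays. The deposited table holds linear intensities of 45101 probe sets; the software that made them is not given in the sources used here, and their common trimmed mean shows a scaling by the authors. Intensities were used as log2(intensity + 3.37), the pseudocount being the 25th percentile of all values. Control probe sets (64) and probe sets dimmer than the 40th percentile of mean log2 signal, at an intensity of 6.79, were dropped, leaving 27022. Of the 45101, 34945 had 1 symbol in the platform's annotation, 932 several and 9160 none; 3 probe sets shared by Dnajc19 and its pseudogene were not used. The brightest probe set by mean intensity stood for a gene. DnaJ genes had 102 probe sets, 85 above the filter.

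limma 3.58.1 in R 4.3.3 (lmFit, eBayes with a trend) was fitted to all 6 arrays and all genes, with Benjamini-Hochberg adjustment at 0.05; it was tested on simulated data. Folds are differences on this scale raised back. Without the block, p-values set a difference against the spread between the 2 cultures within the groups. With it, they set it against how far the differences between groups vary from culture to culture. In both fits limma moderates that spread over all genes. Array numbers name the cultures, so they pair the arrays: deviations from group means correlated at 0.62, 0.53 and 0.57 between same-numbered arrays of the 3 pairs of groups. Taking the culture as a block lowered the median standard error from 0.23 to 0.15 and left 2 residual degrees of freedom in place of 3.

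Genes named with values passed in any comparison, without or with the block, were the brightest of a subfamily, were partners that passed plus Hspa8, or had disagreeing probe sets; others account for all members. Places in the cell are textbook knowledge. The members and lists were chosen with earlier results of these data known. Alternatives covered the block, pseudocount, filter, scaling, probe set choice, arrays fitted, trend and each array left out.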

Additional observations from a re-analysis of the deposited data

How the results depend on the processing

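Dnaja4 and Dnajb1 kept their direction and their calls in all 18 alternatives, in HS+LPS against LPS and against Control, with adjusted p up to 0.0152 and 0.0157; the other 8 genes that passed without or with the block kept their sign in each of these comparisons in which they passed. Dnaja1 lost its call in HS+LPS against LPS without the trend (adjusted p 0.0504), and Dnajb4 without the trend (0.0747) and from the compared groups alone (0.0504); against Control, Dnaja1 lost it in the latter (0.0639) and without the trend (0.0887). DnaJ genes called in HS+LPS against LPS numbered 4, but 9 with the replicate block (5 higher, 4 lower), 2 without the intensity trend and 2 to 3 with 1 array left out, where the lone array of a group is assumed to vary like the others. Against Control they numbered 3, but 9 with the replicate block, 2 without the trend, 2 from the compared groups alone and 2 with 1 array left out. HSP70 partners called numbered 4 in both, but 16 and 14 with the replicate block, 6 in HS+LPS against LPS with the mean of probe sets, and 2 to 4 with 1 array left out. In LPS against Control both counts were 0 throughout, and the block changed no DnaJ call there. The median of subfamily a, 0.56, was 0.41 with quantile normalization, 0.69 with median centring and 0.91 with the mean of probe sets (0.53 to 0.59 with 1 array left out). Where probe sets that match several transcripts gave way to others of the same gene, it was 0.64. Dnaja3 had no other above the filter and kept such a probe set. That of subfamily b, 0.12, was 0.16 with a pseudocount of 16, 0.25 with median centring and -0.0045 with the mean of probe sets, the value of Dnajb6, whose sign turns there (0.082 to 0.31). That of subfamily c, -0.04, was 0.088 with median centring (-0.089 to 0.017). The cause of these moves was not tested. Choosing the brightest probe set by mean log2 signal was added after the data were seen. Signals near noise, as for Dnajb3, Dnajb8 and Dnajc28, limit what can be seen.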

Other observations

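Dnajc15, a mitochondrial co-chaperone that restrains complex I of the respiratory chain, had higher signals in culture 2 in every group. It read 177 in Control, 157 in LPS and 188 in HS+LPS of culture 1, and 306, 285 and 283 in culture 2. All 3 arrays of culture 2 lay above all 3 of culture 1. Dnajc12 had the opposite order, at 157, 163 and 129 in culture 1 and 107, 85.6 and 92.7 in culture 2, again without overlap. Such a separation was not particular to these genes. Dnajb8, Dnajb12, Dnajc1, Dnajc3, Dnajc5 and Dnajc25 also had all 3 arrays of culture 1 above all 3 of culture 2. The share of all genes with such an order was not counted. Dnajc15 and Dnajc12 were chosen after their values were seen, and the difference between cultures was not tested.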
